A study of Mus musculus with 3 samples.

Results

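The genes described here handle fatty acids: *Angptl4*, *Lpl*, *Cd36*, *Fabp4*, *Plin2*, *Cpt1a*, *Acaa2* and *Pdk4*, 8 of the 32285 genes in the count table. They were chosen by symbol, with their levels in these same libraries already known, so the levels and the differences below are descriptions of the data and carry no test. Mononuclear cells were released from the mouse costal diaphragm with collagenase II, dead cells were excluded by DAPI staining, and the 3′ ends of transcripts were counted with unique molecular identifiers (UMIs) cell by cell. WT CD was C57Bl/6J mice on normal chow. WT HFD was the same strain on a high-fat diet with 45% of its calories from lipid. KO HFD was B6.129S2-Thbs1tm1Hyn/J mice, which carry a whole-body disruption of *Thbs1* (thrombospondin 1), on the same high-fat diet. The diets began at 2 months of age and lasted 6 months, and all mice were male. Each group was 1 library pooled from 2 mice. With 1 library a group there is no measure of the spread between animals, so no p-value is given, and every 95% interval below covers counting error only.

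The libraries held 4132 cells in WT CD, 3774 in WT HFD and 4369 in KO HFD, with 34312860, 31967976 and 36478779 UMIs in total. The median cell had 7632.5, 8041.5 and 7554 UMIs. WT CD shared 7 cell barcodes with WT HFD and 7 with KO HFD, and the HFD libraries shared 2. *Thbs1* was counted at 136 CPM (UMIs per 1000000 UMIs) in WT CD, 202 in WT HFD and 163 in KO HFD, and in FAP-like cells, defined below, at 226, 264 and 267 CPM, so its transcripts were present in the library labelled KO HFD. The sources used here do not say whether the counted 3′ end lies outside the disrupted part of *Thbs1*. The count is therefore no check of the label, and KO HFD below means the library so labelled.

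Fatty acids reach a tissue as triglyceride in lipoproteins or as free acids bound to albumin. Lipoprotein lipase (*Lpl*) releases them from triglyceride and the secreted protein ANGPTL4 inhibits that enzyme, CD36 takes them up, FABP4 binds them in the cytosol and perilipin 2 (*Plin2*) coats the droplets in which they are stored. CPT1A admits them to mitochondria, ACAA2 cuts acetyl-CoA from the chain in the last step of beta-oxidation, and PDK4 restrains glucose oxidation by inactivating pyruvate dehydrogenase. Fatty acids also act as ligands of the PPAR receptors, which bind DNA with RXR and are known to raise transcription of many of these genes.

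Positions are given for 7 of the 8, all protein-coding genes. In the GRCm38 annotation (GENCODE M21) *Angptl4* lies at chr17:33773750-33781830 (minus strand), *Lpl* at chr8:68880491-68907448 (plus), *Cd36* at chr5:17781690-17888801 (minus) and *Fabp4* at chr3:10204088-10208576 (minus). *Plin2* lies at chr4:86648386-86670060 (minus), *Cpt1a* at chr19:3322334-3385733 (plus) and *Pdk4* at chr6:5483351-5496309 (minus). RefSeq promoters (GRCm38.p6, from 250 bases before to 50 bases after the start site) were at hand for 4 of them, *Cpt1a*, *Plin2*, *Cd36* and *Pdk4*. The first 3 are printed because these genes were at least 1.5-fold higher on the high-fat diet in one cell class or another, and because PPAR partners bind repeats of the core AGGTCA. Each runs 5′ to 3′ on the gene's own strand, and capitals mark TGACCT, which is the core read on the other strand.
Cpt1a, chr19:3323051-3323350, plus strand: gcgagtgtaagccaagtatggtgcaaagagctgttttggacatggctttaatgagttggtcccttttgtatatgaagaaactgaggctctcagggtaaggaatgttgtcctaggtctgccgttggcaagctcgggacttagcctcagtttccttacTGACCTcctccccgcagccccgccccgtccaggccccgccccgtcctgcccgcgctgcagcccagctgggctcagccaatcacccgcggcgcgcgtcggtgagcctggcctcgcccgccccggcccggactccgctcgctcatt
Plin2, chr4:86670010-86670309, minus strand: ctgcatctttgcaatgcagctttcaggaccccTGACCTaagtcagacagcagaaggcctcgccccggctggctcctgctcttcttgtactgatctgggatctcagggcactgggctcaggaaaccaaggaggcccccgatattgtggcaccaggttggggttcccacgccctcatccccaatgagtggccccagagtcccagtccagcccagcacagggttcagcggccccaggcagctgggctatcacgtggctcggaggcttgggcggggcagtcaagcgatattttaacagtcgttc
Cd36, chr5:17835847-17836146, minus strand: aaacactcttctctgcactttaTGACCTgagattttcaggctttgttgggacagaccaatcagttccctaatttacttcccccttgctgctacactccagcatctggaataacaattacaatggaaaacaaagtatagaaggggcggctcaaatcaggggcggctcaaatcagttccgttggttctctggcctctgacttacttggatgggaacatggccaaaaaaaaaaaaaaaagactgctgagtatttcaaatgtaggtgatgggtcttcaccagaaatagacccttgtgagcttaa

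The match begins 94 bases before the RefSeq start site in *Cpt1a*, 218 before in *Plin2* and 228 before in *Cd36*, and the *Pdk4* window held none. The windows of *Cpt1a* and *Cd36* lie inside the gene spans given above, so their start sites are not the outer ends of those spans. On both strands, AGGTCA was found in 5340 of the 32851 RefSeq promoters of this length (16.3%). The full repeat AGGTCANAGGTCA, which contains that core, was found in 13 of them (0.0396%) and in none of these 4. A match is only a match of letters.

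Cells were clustered over all libraries with these 8 genes left out of the clustering, and clusters were named from fixed markers. FAP-like cells, the fibro-adipogenic progenitors of muscle, numbered 1435, 1261 and 1646 (34.7%, 33.4% and 37.7% of the library) in WT CD, WT HFD and KO HFD, in that order here and below. They formed 5 clusters, called by their leading genes: Cxcl14 Mme, Stmn4 Dact2, Sult1e1 Scin, Sult1e1 Gdf10 and a small Ifit3 Ifit1 cluster of 13, 19 and 24 cells. Further stromal clusters, Sfrp2 Avpr1a and Dio2 Pthlh, expressed all 6 FAP markers but had the tenocyte marker *Thbs4* among their 10 leading genes. They were kept apart and held 10.96%, 8.08% and 9.48%, and 8.40%, 11.05% and 7.85%, of the libraries. In all, 11 classes had at least 50 cells in each library, and orders and rankings of classes below are among these 11.

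**Figure D1:**
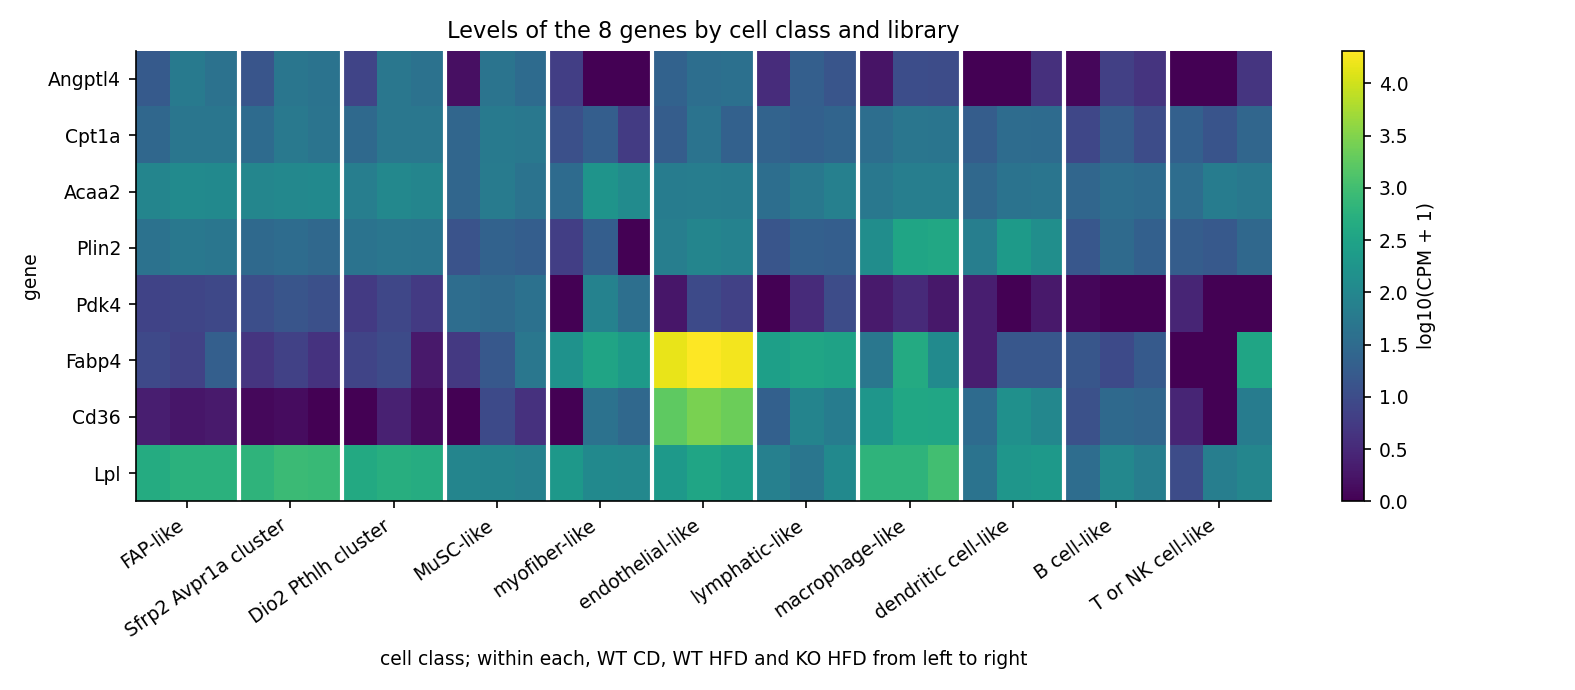
Heat map of log10(CPM + 1) of the 8 genes (rows of panels) in the 11 larger cell classes by library (WT CD, WT HFD, KO HFD), from UMIs summed over the cells of a class. *Fabp4* and *Cd36* peaked in endothelial-like cells, *Plin2* in macrophage-like cells, *Lpl* in macrophage-like cells and stromal clusters, and *Angptl4* in WT CD was at most 5.23 CPM in the plotted classes other than the stromal and endothelial-like ones.

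*Angptl4* was far more abundant on the high-fat diet in stromal cells and in muscle stem (MuSC-like) cells, and lay somewhat lower in KO HFD than in WT HFD. In FAP-like cells it stood at 15.9 CPM in WT CD (95% interval, 13.8 to 18.2; 203 UMIs), 59.0 in WT HFD (54.8 to 63.5; 719 UMIs) and 41.0 in KO HFD (37.8 to 44.4; 603 UMIs). The 3 intervals did not overlap: WT CD was lowest, WT HFD highest, and KO HFD between them but nearer to WT HFD. The log2 ratio of WT HFD to WT CD was 1.90 (1.67 to 2.13), a fold of 3.72, the third highest of the 10140 genes with at least 100 UMIs in both libraries together. The log2 ratio of KO HFD to WT HFD was -0.53 (-0.68 to -0.37), short of 1.5-fold and at rank 10143 from the highest of 10272 genes. KO HFD exceeded WT CD by 1.37 (1.14 to 1.61). Both comparisons share the WT HFD library, so a high or low value there would move them in opposite directions.

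The share of FAP-like cells with the transcript was larger on the high-fat diet. The UMIs in each such cell were larger at full depth but nearly level in cells thinned to equal depth. At least 1 *Angptl4* UMI was found in 10.9% of FAP-like cells in WT CD, 33.6% in WT HFD and 23.6% in KO HFD, at median depths of 8609, 9313 and 8612.5 UMIs a cell. In B cell-like cells, which should lack the transcript and so show how much free RNA contributes, the share was 0.228%, 2.45% and 1.92% at medians of 9360, 7382 and 4985.5 UMIs. That class included 101, 7 and 11 deeper cells led by *Jchain* and *Igkc*; its Ms4a1 Cd79a cluster alone had 0 of 337 cells in WT CD, which allows a share of up to 0.890%, and shares of 2.56% and 1.08% in WT HFD and KO HFD, at 7876, 7134 and 4578 UMIs. With every FAP-like cell thinned to 3000 UMIs, which left out 42, 12 and 21 shallower cells, the shares were 3.95%, 13.1% and 9.97%, in the same order. At full depth positive cells held 1.30, 1.70 and 1.55 UMIs on average, and 3 or more UMIs were found in 0.836%, 5.47% and 3.1% of the cells. With cells thinned to 3000 UMIs, positive cells held 1.13, 1.17 and 1.12 UMIs on average. The highest cell of a library held 4, 9 and 13 UMIs, so no single cell carried the class total. Markers of other cells were sparse in FAP-like cells: adipocyte markers summed to 3, 6 and 41 UMIs, with *Adipoq* (adiponectin) the most abundant, and endothelial markers to 14.4, 10.4 and 12.4 CPM, macrophage markers to 10.4, 12.4 and 13.3 CPM and myofiber markers to 29.1, 21.7 and 24.2 CPM.

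Every large stromal cluster had more *Angptl4* in WT HFD than in WT CD, but from different starting levels. Cxcl14 Mme had 7.89, 39.6 and 28.6 CPM and Stmn4 Dact2 4.03, 49.8 and 32.8. Of the 4 larger FAP-like clusters, the level was highest in every library in those led by *Sult1e1*, an estrogen sulfotransferase: Sult1e1 Scin had 20.6, 70.7 and 54.4 CPM, and Sult1e1 Gdf10 had 39.1, 111 and 61.6. The log2 ratios on diet ranged from 1.5 (1.13 to 1.88) in Sult1e1 Gdf10, which already had the most in WT CD, to 3.63 (2.88 to 4.49) in Stmn4 Dact2, which had the least. Between the genotypes only Sult1e1 Gdf10 at -0.85 (-1.18 to -0.51) and Stmn4 Dact2 at -0.60 (-0.92 to -0.30) passed 1.5-fold among these 4 clusters. Cxcl14 Mme lay at -0.47 (-0.83 to -0.10) and Sult1e1 Scin at -0.38 (-0.68 to -0.07).

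The stromal clusters with *Thbs4* also had more *Angptl4* on diet, and their KO HFD ratios were closer to 0 than that of FAP-like cells. Sfrp2 Avpr1a had 12.5, 48.4 and 42.6 CPM of *Angptl4*, and Dio2 Pthlh had 6.68, 51 and 42.0. WT CD was lowest in both, and the intervals of the HFD libraries overlapped. The diet ratios were 1.95 (1.46 to 2.46) and 2.93 (2.28 to 3.65). The KO HFD ratios were -0.18 (-0.54 to 0.17) and -0.28 (-0.61 to 0.05), so counting error alone leaves room for no difference.

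**Figure D2:**
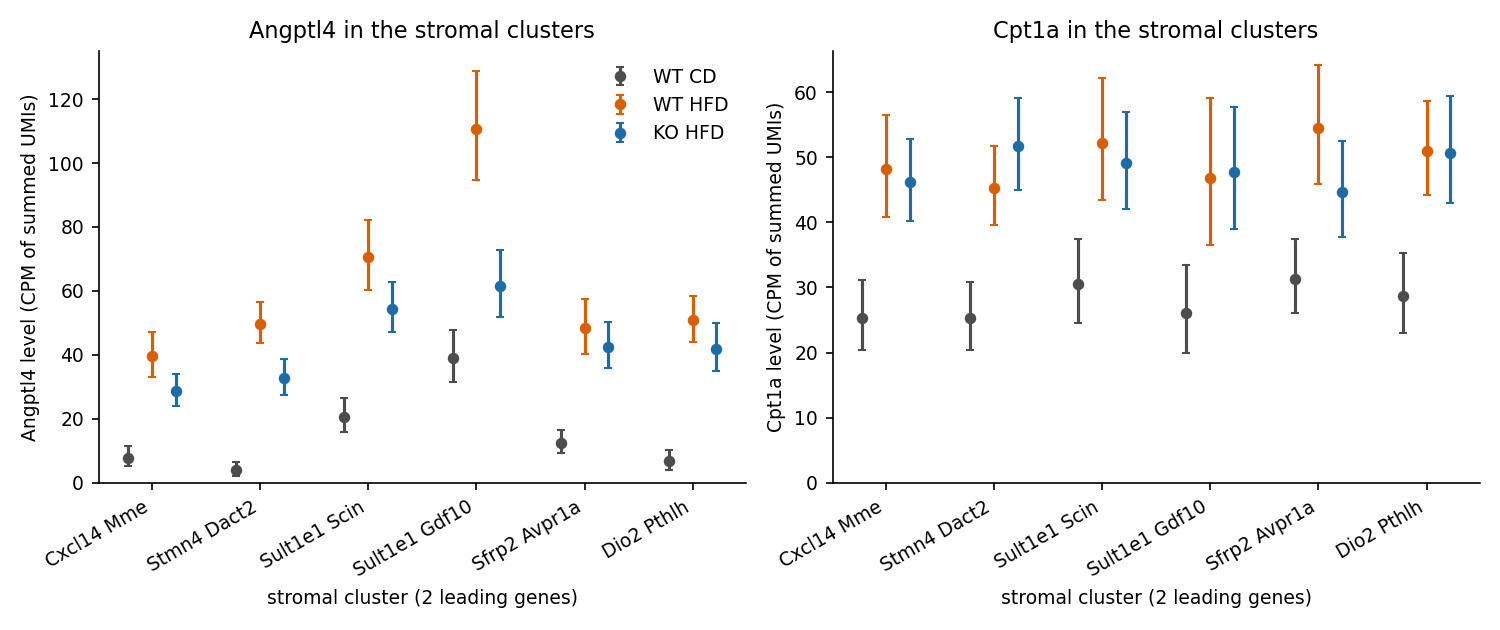
CPM of *Angptl4* and *Cpt1a* in 6 stromal clusters (x axis) in WT CD, WT HFD and KO HFD, with 95% Poisson intervals of the counts as bars. *Angptl4* in WT CD ran from 4.03 to 39.1 CPM between clusters, while *Cpt1a* lay between 25.2 and 31.4 CPM in WT CD in all 6 and between 45.3 and 54.5 CPM in WT HFD.

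Outside the stroma, MuSC-like cells stood out: *Angptl4* was a single UMI in the 420 WT CD cells (0.521 CPM, interval 0.0132 to 2.90), but 81 UMIs in the 306 WT HFD cells (44.7 CPM, 35.5 to 55.6) and 99 in the 492 KO HFD cells (31.6 CPM, 25.7 to 38.4). The share of positive cells was 0.238%, 17.3% and 10.4% at median depths of 4430, 5285.5 and 5622 UMIs, well above that of B cell-like cells in the HFD libraries and close to it in WT CD. The log2 ratio of WT HFD to WT CD had a wide interval, 6.42 (3.90 to 11.74), on 82 UMIs, and that of KO HFD to WT HFD was -0.50 (-0.94 to -0.06). Over the alternatives that compare these same libraries the second ranged from -0.72 at Leiden resolution 2 to -0.25 with cells thinned to 3000 UMIs. Myofiber markers had the same order in MuSC-like cells, at 242, 434 and 333 CPM for the summed list, led by *Acta1* (skeletal actin) with no marker at 0, and erythroid markers summed to 1, 0 and 995 UMIs. Their part in the MuSC-like values was not tested. *Angptl4* itself was at 1, 0 and 0 UMIs in myofiber-like cells.

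Of the other classes among the 11, endothelial-like cells had the most *Angptl4* in WT CD, at 21.8 CPM (14.3 to 32.0), with 34.7 (25.0 to 46.9) in WT HFD and 38.2 (27.3 to 52.0) in KO HFD. These 3 intervals overlapped. Macrophage-like cells had 0.699, 9.46 and 8.89 CPM, on 2, 42 and 48 UMIs, and lymphatic-like cells had 2.55, 18.8 and 12.9. The largest macrophage-like cluster was Mmp12 Retnla in WT CD and Cd209f Folr2 in WT HFD, while both were about equal in KO HFD, as given below. Within Cd209f Folr2 the *Angptl4* values were 0, 15.1 and 14.2 CPM. In dendritic cell-like cells no UMI was found in 89 WT CD or 62 WT HFD cells, which allows shares of cells with a UMI, not of cells expressing the gene, up to 3.37% and 4.84% (3 counts of the total). Ordered by the mean of the 3 libraries, the levels of the 11 classes ran from FAP-like (38.6 CPM) through Sfrp2 Avpr1a, Dio2 Pthlh, endothelial-like and MuSC-like (25.6 CPM) to dendritic cell-like (0.991 CPM), and each neighbouring pair overlapped in its range over libraries.

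**Figure D3:**
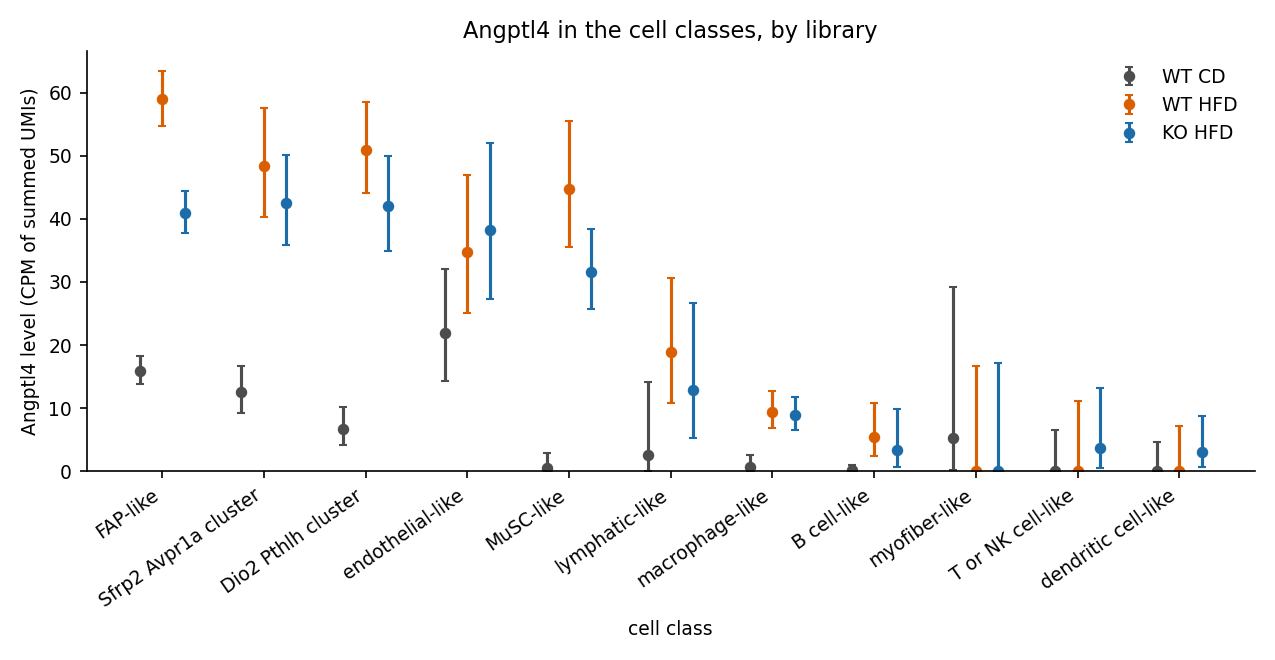
*Angptl4* CPM by cell class in WT CD, WT HFD and KO HFD, with 95% Poisson intervals of the counts as bars. In the stromal and MuSC-like classes both HFD libraries lie above WT CD with no overlap, and in endothelial-like cells the intervals overlap.

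*Cpt1a*, whose product is the gate for long-chain fatty acids into mitochondria, was higher on the high-fat diet by nearly the same factor in the 6 larger stromal clusters and was alike in the HFD libraries. FAP-like cells had 26.7 CPM in WT CD (24.0 to 29.7), 47.4 in WT HFD (43.6 to 51.5) and 48.3 in KO HFD (44.8 to 52.0). The intervals of the HFD libraries overlapped each other and not that of WT CD. The diet ratio was 0.83 (0.63 to 1.03) on the log2 scale, rank 34 of 10140, and the KO HFD ratio was 0.03 (-0.13 to 0.19). By cluster the diet ratio was 0.93 in Cxcl14 Mme, 0.85 in Stmn4 Dact2, 0.77 in Sult1e1 Scin, 0.84 in Sult1e1 Gdf10, 0.80 in Sfrp2 Avpr1a and 0.83 in Dio2 Pthlh. The Ifit3 Ifit1 cluster had too few UMIs to tell, 4, 7 and 5.

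In MuSC-like cells *Cpt1a* was 25.5, 55.7 and 53.3 CPM, with a diet ratio of 1.13 (0.62 to 1.65) and a KO HFD ratio of -0.07 (-0.43 to 0.31). Endothelial-like cells showed another order, 17.6 CPM in WT CD (10.9 to 27.0), 43.0 in WT HFD (32.1 to 56.4) and 21 in KO HFD (13.2 to 31.8). There the KO HFD value lay with WT CD, but on only 21, 52 and 22 UMIs. Macrophage-like cells had 35.3, 49.1 and 46.3 CPM. All 11 classes overlapped their neighbours in the order of *Cpt1a* levels.

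*Acaa2*, the thiolase of mitochondrial beta-oxidation, differed less than *Cpt1a* on diet in FAP-like cells, but not in MuSC-like cells. FAP-like cells had 89.6, 115 and 110 CPM, a diet ratio of 0.36 (0.25 to 0.47) and a KO HFD ratio of -0.06 (-0.17 to 0.04). MuSC-like cells had 26.0 (19.3 to 34.3), 61.8 (50.9 to 74.4) and 43.4 CPM (36.4 to 51.3), so WT HFD exceeded WT CD by 1.25 (0.75 to 1.76) and KO HFD lay between them, at -0.51 (-0.88 to -0.14) from WT HFD. With classes from the marker UMIs of each cell these ratios were 0.37, short of 1.5-fold, and 0.24, of the other sign. Myofiber-like cells had 31.4, 172 and 121 CPM on 6, 38 and 26 UMIs, the same order as the myofiber markers in MuSC-like cells. The leading genes of the myofiber-like class were *Acta1* and mitochondrial transcripts, and its cells were shallow, with a median of 1568.5 UMIs. In endothelial-like cells *Acaa2* was level, at 63.9, 66.1 and 63.0 CPM.

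*Pdk4* was low, and in FAP-like and MuSC-like cells its intervals overlapped between the libraries. FAP-like cells had 6.48 CPM in WT CD (5.16 to 8.04), 6.89 in WT HFD (5.50 to 8.53) and 7.61 in KO HFD (6.27 to 9.16), with ratios of 0.09 (-0.37 to 0.54) and 0.14 (-0.28 to 0.57). MuSC-like cells had more, 33.8, 29.8 and 39.6 CPM. Endothelial-like cells had 1, 10 and 6 UMIs (0.840, 8.27 and 5.73 CPM), lowest in WT CD. Myofiber-like cells had 0, 18 and 8 *Pdk4* UMIs, or 0, 81.4 and 37.1 CPM, of which 8 and 6 UMIs in the HFD libraries came from 1 cell each.

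*Plin2*, which marks stored lipid, was most abundant in macrophage-like cells and higher there on the diet. They had 130 CPM in WT CD (117 to 144), 344 in WT HFD (327 to 362) and 388 in KO HFD (371 to 405), ratios of 1.40 (1.24 to 1.57) and 0.17 (0.08 to 0.27). The macrophage-like class differed in makeup between the libraries: cluster Cd209f Folr2 had 101, 243 and 213 cells, Mmp12 Retnla 126, 110 and 212, and Saa3 Alox15 8, 56 and 14. Within Cd209f Folr2 *Plin2* was 140, 347 and 527 CPM, with ratios of 1.31 (1.01 to 1.62) and 0.60 (0.46 to 0.75). Within Mmp12 Retnla it was 123, 387 and 329, with ratios of 1.65 (1.43 to 1.87) and -0.23 (-0.37 to -0.09). Both clusters were higher on the diet, and they differed in opposite directions between the genotypes.

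In FAP-like cells *Plin2* was 40.5, 51.7 and 47.6 CPM, with ratios of 0.35 (0.18 to 0.52) and -0.12 (-0.28 to 0.04). Dendritic cell-like cells had 70.1, 223 and 135 CPM, but 47 of the 115 UMIs in WT HFD were in 1 cell. Without the highest cell of each library the values were 62.8, 137 and 126, and the diet ratio fell from 1.67 to 1.13 and the KO HFD ratio moved from -0.73 to -0.13.

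*Fabp4*, the fatty acid binding protein of capillary endothelium and fat cells, was above all an endothelial transcript here. Endothelial-like cells had 14662 CPM in WT CD, 20564 in WT HFD and 17316 in KO HFD, ratios of 0.49 (0.46 to 0.52) and -0.25 (-0.28 to -0.22). Lymphatic-like cells came next among the 11 classes by the mean of the libraries, at 273, 343 and 303 CPM, a range far below that of endothelial-like cells. Neither endothelial ratio reached 1.5-fold.

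In macrophage-like cells *Fabp4* had the largest diet ratio of the 6 genes with at least 100 UMIs there, at 50.3 CPM in WT CD (42.4 to 59.2), 433 in WT HFD (414 to 453) and 115 in KO HFD (106 to 125). The ratios were 3.11 (2.86 to 3.36) and -1.91 (-2.05 to -1.78), and with the clusters of the class weighted alike they were 0.90 and -0.42. The small Saa3 Alox15 cluster held 102, 1454 and 272 of the 144, 1925 and 622 *Fabp4* UMIs of the class, at 981, 1655 and 1276 CPM, and whose share of the class was largest in WT HFD. Its own ratios were 0.75 (0.46 to 1.06) and -0.37 (-0.57 to -0.19), on 8, 56 and 14 cells. Without the highest cell of each library they were 1.68 and -0.47, and those of the whole class were 3.74 and -1.96. Cd209f Folr2 had 36.6, 144 and 113 CPM, with ratios of 1.98 (1.41 to 2.59) and -0.35 (-0.63 to -0.08). Mmp12 Retnla had 7.02, 119 and 45.5, with ratios of 4.08 (3.30 to 4.98) and -1.39 (-1.70 to -1.08). The top cell held 66 of the 203 UMIs in WT HFD and 36 of the 159 in KO HFD in Mmp12 Retnla.

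The high *Fabp4* values of FAP-like, MuSC-like and T or NK cell-like cells in KO HFD rested on few cells. FAP-like cells had 8.05, 6.15 and 19.5 CPM, a KO HFD ratio of 1.66 (1.29 to 2.05), but 147 of the 287 UMIs in KO HFD were in 1 cell of 4520 UMIs with 16.5% mitochondrial UMIs. That cell held 35 of the 41 adipocyte-marker UMIs of the FAP-like class in KO HFD, against 3 and 6 such UMIs in the class in WT CD and WT HFD. Without the highest cell of each library the values were 6.49, 5.67 and 9.52 and the ratio 0.75. MuSC-like cells had 4.17, 14.3 and 49.4 CPM with 118 of 155 UMIs in 1 KO HFD cell, and their ratio of 1.78 became 0.33 without the highest cells. The 185 *Fabp4* UMIs of T or NK cell-like cells in KO HFD, against 0 in the other libraries, were in 7 cells that held 51 of the class's 58 endothelial-marker UMIs. Myofiber-like cells had 157, 335 and 227 CPM of *Fabp4*. Their diet ratio of 1.09 (0.46 to 1.76) became 1.91 without the highest cells.

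*Cd36*, the fatty acid translocase, followed *Fabp4* in endothelial-like cells and was nearly silent in the stroma. Endothelial-like cells had 1738, 2823 and 2167 CPM, ratios of 0.70 (0.62 to 0.78) and -0.38 (-0.46 to -0.30), so KO HFD lay between the other libraries. FAP-like cells had 1.33, 0.821 and 1.09 CPM on 17, 10 and 16 UMIs, with a UMI in 0.627%, 0.555% and 0.547% of cells. B cell-like cells had more *Cd36*, at 10.6, 28.7 and 25.8 CPM, with a UMI in 5.48%, 14.7% and 10.6% of cells. They were thus no measure of free RNA for this gene. Macrophage-like cells had 186, 376 and 352 CPM, ratios of 1.01 (0.87 to 1.16) and -0.10 (-0.19 to 0.00). Within them Cd209f Folr2 had 292, 446 and 465 and Mmp12 Retnla 140, 438 and 309, so diet ratios were 0.61 (0.40 to 0.83) and 1.64 (1.44 to 1.84). The small Saa3 Alox15 cluster went the other way, with 279, 106 and 141 CPM and a diet ratio of -1.40 (-2.01 to -0.74).

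*Lpl*, the enzyme that ANGPTL4 inhibits, was carried by the stroma and macrophage-like cells. FAP-like cells had 457, 572 and 558 CPM, with at least 1 UMI in 87.4%, 92.8% and 90.5% of cells (6.39%, 7.36% and 10.6% of B cell-like cells) and ratios of 0.32 (0.27 to 0.38) and -0.04 (-0.08 to 0.01). Sfrp2 Avpr1a had 631, 864 and 811 CPM. Among the 4 larger FAP-like clusters, Sult1e1 Gdf10 had both the most *Angptl4* and the most *Lpl* in the HFD libraries, 565, 952 and 849 CPM of *Lpl*, and was the only one of them past 1.5-fold on diet, at 0.75 (0.65 to 0.86). The small Ifit3 Ifit1 cluster had 258, 915 and 462 CPM.

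In endothelial-like cells *Lpl* was 207, 343 and 263 CPM, with ratios of 0.73 (0.50 to 0.96) and -0.38 (-0.61 to -0.16). With cells thinned to 3000 UMIs the diet ratio was 0.19. In macrophage-like cells it was 629 CPM in WT CD, 638 in WT HFD and 1006 in KO HFD, a diet ratio of 0.02 (-0.07 to 0.11) and a KO HFD ratio of 0.66 (0.59 to 0.72). The clusters differed: Mmp12 Retnla had 863, 1434 and 1377 CPM, a diet ratio of 0.73 (0.64 to 0.82) and a KO HFD ratio of -0.06 (-0.13 to 0.01). Cd209f Folr2 had 86.4, 195 and 361, ratios of 1.18 (0.80 to 1.58) and 0.89 (0.70 to 1.08). Saa3 Alox15 had 115, 27.3 and 56.3. KO HFD was thus above WT HFD in Cd209f Folr2 and not in Mmp12 Retnla, which was a smaller part of the class in WT HFD than in either other library.

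**Figure D4:**
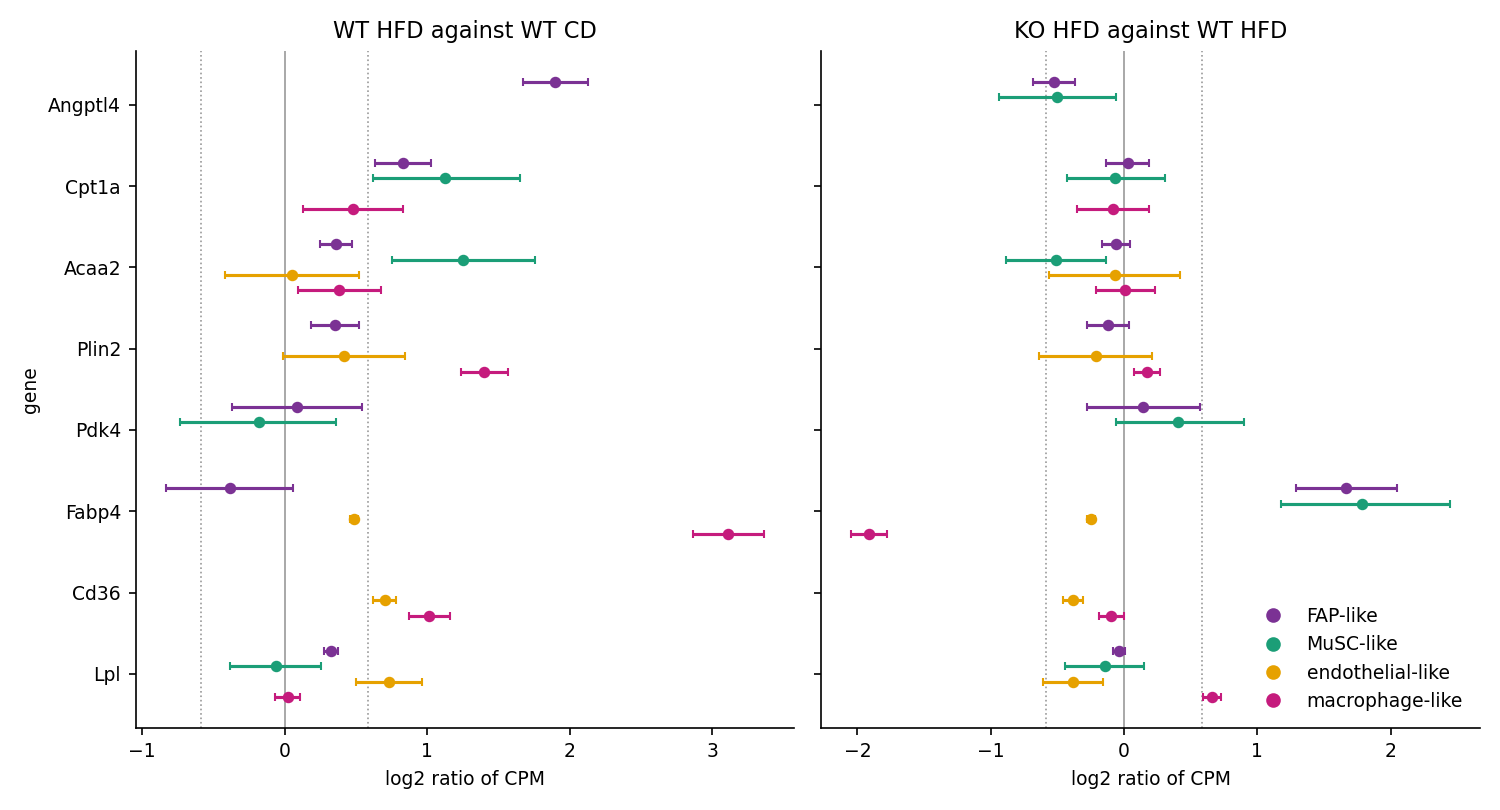
Log2 ratios of the 8 genes, WT HFD to WT CD and KO HFD to WT HFD, in FAP-like, MuSC-like, endothelial-like and macrophage-like cells, with 95% counting intervals and dotted lines at 1.5-fold; genes under 100 UMIs in both libraries together have no point. Most diet ratios lie above 0, most KO HFD ratios lie near or under 0, and the KO HFD points of *Fabp4* in FAP-like and MuSC-like cells became 0.75 and 0.33 without the highest cell of each library.

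Counted by class, a gene was called past 1.5-fold where it had at least 100 UMIs in both libraries together. In FAP-like cells 7 of the 8 were measured on diet, and 2 were higher (*Angptl4*, *Cpt1a*) and 0 lower, where 1.65% of all genes were higher and 1.55% lower. Their median log2 ratio was 0.35 against 0.08 over all genes. Between genotypes 1 (*Fabp4*) was higher and 0 were lower, where 1.11% of all genes were higher and 0.857% lower, and the median was -0.04 in both. In Sfrp2 Avpr1a and in Dio2 Pthlh 2 of 5 were higher on diet, *Angptl4* and *Cpt1a*, against 2.46% and 2.28% of all genes, and 0 were lower in KO HFD, against 1.13% and 1.39%. As these genes were chosen with these contrasts known, the shares are given as background and nothing is read from the difference.

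In MuSC-like cells 2 of 4 measured were higher on diet (*Cpt1a*, *Acaa2*), against 12.3% of all genes, whose median was itself at 0.17. With classes from the marker UMIs of each cell *Acaa2* was short of 1.5-fold, at 0.37. In KO HFD 1 of 6 was higher (*Fabp4*), against 1.79%, and 0 were lower, against 2.19%. In endothelial-like cells 2 of 5 were higher on diet (*Cd36*, *Lpl*), against 2.91%, with a median of 0.49 against 0.00 over all genes, and 0 were lower in KO HFD, against 2.23%, with a median of -0.25 against -0.02. In macrophage-like cells 3 of 6 were higher on diet (*Plin2*, *Fabp4*, *Cd36*), against 6.71%, and in KO HFD 1 was higher (*Lpl*), against 2.91%, and 1 lower (*Fabp4*), against 3.78%.

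Within FAP-like cells *Angptl4* and the others could be read in the same cells. With each cell thinned to 3000 UMIs there were 55, 163 and 162 *Angptl4*-positive cells. *Lpl* was found in 76.4%, 73.0% and 74.1% of them and in 65.8%, 69.5% and 68.3% of negative cells. *Cpt1a* was found in 14.5%, 12.9% and 13.0% of positive and 7.25%, 12.3% and 13.1% of negative cells. In the HFD libraries *Cpt1a* was thus found in similar shares of positive and negative cells, although both genes were higher there than in WT CD. *Acaa2*, of the mitochondrial beta-oxidation pathway, was found in 12.7%, 31.9% and 25.9% of positive and 24.3%, 26.9% and 28.4% of negative cells. *Plin2* was found in 5.45%, 10.4% and 14.8% of positive and 11.0%, 13.5% and 11.8% of negative cells. For neither gene was one share the higher in all 3 libraries. *Fabp4* was rare, in 0%, 3.68% and 4.32% of positive cells and 1.35%, 1.29% and 1.5% of negative cells. *Pdk4* was also rare, in 0%, 1.84% and 0.617% of positive and 1.72%, 2.39% and 2.05% of negative cells.

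Of 91 further genes of fatty acid metabolism in 7 lists, 63 were measured on diet in FAP-like cells. Past 1.5-fold, 1 of them was higher and 3 were lower, where 1.65% and 1.55% of all genes were. Their median was 0.06 against 0.08 over all genes. Between genotypes 1 was higher and 0 were lower, where 1.11% and 0.857% of all genes were, with a median of -0.01 against -0.04. Of the 25 genes of mitochondrial and peroxisomal oxidation, 22 were measured on diet and 0 were higher and 1 lower, with a median of 0.16.

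The higher gene was *Ucp2*, a mitochondrial carrier known as a PPAR target, at 1.95, 7.39 and 5.23 CPM, a diet ratio of 1.92 (1.27 to 2.62) close to that of *Angptl4* and a KO HFD ratio of -0.50. The lower genes included *Acot1*, a cytosolic acyl-CoA thioesterase, at 17.3, 6.89 and 9.52 CPM (-1.33, -1.71 to -0.96), and *Pdp2*, a phosphatase that reactivates pyruvate dehydrogenase, at 6.72, 3.12 and 5.23 CPM (-1.11). *Pdp2* was the 1 gene past 1.5-fold in KO HFD against WT HFD, at 0.75.

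The other genes high on diet stayed short of 1.5-fold. *Pdk1*, a paralog of *Pdk4*, was 3.59, 5.01 and 4.28 (0.48). *Etfb*, of the electron transfer flavoprotein, was at 0.38, *Cpt2*, the partner of *Cpt1a* inside the mitochondrion, at 0.36 and the monoacylglycerol lipase *Mgll* at 0.36. Other low values were those of the pyruvate dehydrogenase phosphatase regulator *Pdpr* at -0.44, the acyl-CoA synthetase *Acsl3* at -0.36 and *Tmem120a* at -0.35. In KO HFD against WT HFD the values after *Pdp2* were 0.51 for *Pdpr*, 0.49 for the fatty acid transporter *Slc27a1*, 0.47 for *Acot1*, 0.32 for *Pdk2* and 0.30 for *G0s2*, an inhibitor of lipolysis. Among the lowest were *Ucp2*, the receptor *Ppard* at -0.48, *Mgll* at -0.35, *Mlycd* at -0.32 and the dehydrogenase *Acadl* at -0.24.

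In FAP-like cells paralogs and partners gave no second case like *Angptl4* or *Cpt1a*. *Cpt1c*, *Plin3*, *Pdk2*, *Pdk3* and *Fabp5* had diet ratios of -0.13, 0.18, 0.07, 0.21 and 0.00 in FAP-like cells. *Lmf1*, needed for lipase folding, was at 0.19 and *Ppard* at 0.19. *Cpt1b*, *Plin1*, *Plin4*, *Plin5*, the receptors *Ppara* and *Pparg* and *Gpihbp1*, which carries lipase across the capillary wall, were under 100 UMIs. Other lists that bear on *Angptl4* were measured too: on diet, in FAP-like cells, 0 of 10 hypoxia genes, 0 of 9 glucocorticoid genes and 0 of 10 immediate early genes were past 1.5-fold either way, with medians of 0.10, 0.06 and -0.21. Of all genes 1.65% were higher and 1.55% lower there, so counts of 0 in lists this small say nothing about these responses. In other classes some genes of these lists were past 1.5-fold on diet: *Pgk1* (1.18) and *Tsc22d3* (0.89) in MuSC-like cells, *Ero1l* (0.76) and *Zbtb16* (1.01) in Dio2 Pthlh, *Per1* (0.62) and *Junb* (-0.59) in Sfrp2 Avpr1a, *Pgk1* (0.62) and *P4ha1* (0.61) in endothelial-like cells, and *Vegfa* (0.78), *Klf9* (0.83), *Tsc22d3* (0.68) and *Slc2a1* (-0.78) in macrophage-like cells. Over all genes the shares higher on diet in these classes were 12.3%, 2.28%, 2.46%, 2.91% and 6.71%, in the same order. In KO HFD the hypoxia-induced *Adm* was higher in FAP-like cells, at 0.65 (0.57 to 0.74), in Sfrp2 Avpr1a (0.65) and in macrophage-like cells (1.10). Also past 1.5-fold in KO HFD were *Vegfa* (0.87) in MuSC-like cells and *Zbtb16* (-0.62) in Dio2 Pthlh. In endothelial-like cells *Mt1* (1.80), *Mt2* (1.66), *Atf3* (0.81) and *Fos* (0.66) were higher in KO HFD.

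**Figure D5:**
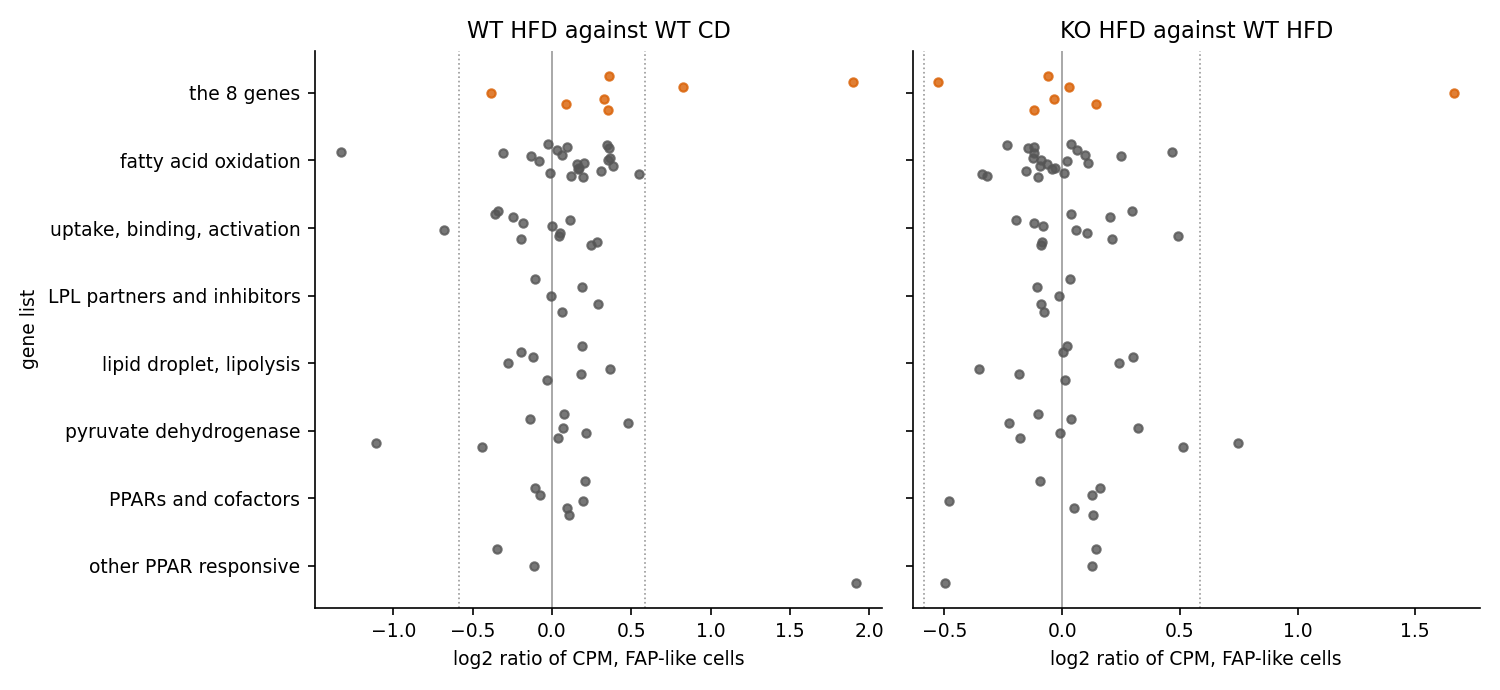
Log2 ratios in FAP-like cells for the measured genes of each list (1 point a gene), WT HFD to WT CD and KO HFD to WT HFD, with the 1.5-fold bounds dotted. The measured genes of the other lists together had medians of 0.06 on diet and -0.01 in KO HFD, and those of the 8 genes 0.35 and -0.04. On diet *Angptl4*, *Cpt1a* and *Ucp2* lie above the bound while *Acot1* and *Pdp2* are among those under it.

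More genes of the same lists were called in MuSC-like cells, where 12.3% of all genes were higher on diet. Of the 12 oxidation genes measured there 6 were higher: *Acadl* (42.7, 127 and 86.1 CPM; diet ratio 1.58), *Acads* (1.42), *Eci2* (1.10), *Etfb* (0.86), *Eci1* (0.75) and *Acadm* (0.70). *Ucp2* was 7.81, 81.7 and 38.0 CPM, with a diet ratio of 3.39 (2.62 to 4.26) and a KO HFD ratio of -1.11 (-1.47 to -0.75). *Fabp3*, the muscle fatty acid binding protein, was 17.2, 63.5 and 46.9 CPM (1.88), and *Plin3* 37.5, 106 and 68.3 (1.5). *Acads*, *Plin3* and *Ucp2* were at least 1.5-fold lower in KO HFD. Beside them the myofiber markers *Acta1*, *Mb* (myoglobin) and *Ckm* were also higher on diet, at 0.95, 1.21 and 0.70, and their part in these values was not tested.

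In endothelial-like cells the other genes past 1.5-fold on diet in these lists were *Fabp5* (595, 1013 and 773 CPM; 0.77), *Pcsk6* (1.11), *Lrp1* (0.70), *Eci2* (0.67), *Lipe* (0.66) and *Etfa* (0.64), all higher. The myofiber marker *Acta1* was also higher there on diet, at 41.2, 69.4 and 70.6 CPM (0.75, 0.23 to 1.29). Its part in these values was not tested. In macrophage-like cells *Fabp5* (107, 246 and 244 CPM; 1.21), the droplet protein gene *Hilpda* (34.2, 70.0 and 60.9; 1.03), *Decr1* (0.76) and *Slc25a20* (0.74) were higher, and *Apoc2*, the activator of lipoprotein lipase (-0.95), was lower.

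Across the 33 sums of class and library, which share depth and cells of the same libraries, *Angptl4* was most like *Aida* (Pearson r of log2(CPM + 1), 0.87), *Rhob*, *Atraid* and *Polr2i* (0.83 each), *Pja2*, *Trpm7* and *Crtap* (0.82 each), and *Adarb1*, *Smarca2* and *Tmem140* (0.81 each), of 5826 genes. None of these 10 differed on diet in FAP-like cells as *Angptl4* did, with log2 ratios between -0.13 and 0.26. The other 7 genes had r of 0.65 for *Cpt1a*, 0.58 for *Lpl*, 0.46 for *Acaa2*, 0.30 for *Pdk4*, 0.23 for *Plin2*, 0.20 for *Fabp4* and -0.05 for *Cd36*.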

How the data were processed

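The deposited matrices hold raw UMI counts per gene and cell, made by the authors with Cell Ranger 6.1.1 on mm10, per the labels; cell filtering beyond that is not given in the sources used here. Every barcode was kept. Counts per 10000 of the 2000 most variable genes were reduced to 30 components and clustered (scanpy 1.11.5, 15 neighbours, Leiden resolution 1, 28 clusters), leaving out the listed genes. A cluster took a class from markers (mean log2 ratio of at least 1, with at least 3 markers in at least 10% of cells; thresholds set after the clusters were seen). Doublets (1.26%, 1.09% and 1.33% called with scanpy's scrublet at an assumed 6% rate) were kept. UMIs were summed per class and library and given as CPM with exact Poisson intervals, ratios with conditional Clopper-Pearson intervals and shares with Clopper-Pearson intervals (95%). The ratio step was tested on simulated data. edgeR 4.0.16 gave TMM factors only. The 8 genes and all lists were chosen with earlier results of these data known. Named besides them were the 6 highest and 6 lowest genes of the lists per contrast in FAP-like cells, chosen paralogs and partners, the 10 most alike genes with at least 50 CPM in a sum, and, after values were seen, the list genes past 1.5-fold in other classes. Some of the genes this rule names are not reported here.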

Additional observations from a re-analysis of the deposited data

How the results depend on the processing

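For *Angptl4* in FAP-like cells, WT HFD to WT CD (1.90) moved to 1.60 with the clusters of the class weighted alike, which gives the 13 to 24 cells of Ifit3 Ifit1 the weight of the large clusters, to 1.01 against the other libraries combined, and to 2.29 without the Sult1e1 Gdf10 cluster, an alternative chosen after seeing the data. KO HFD to WT HFD (-0.53) moved to -0.69 and 0.15 under the first 2 of these; the second includes WT CD in its reference and so asks another question. The count of genes higher on diet (2) became 4 with clusters weighted alike, 1 against the other libraries combined, 1 at 2-fold and 0 at 1000 UMIs, and the count lower in KO HFD (0) became 1 with clusters weighted alike. *Fabp4* in FAP-like cells, KO HFD to WT HFD (1.66), reversed to -0.18 with classes from the marker UMIs of each cell. Short of 1.5-fold were also *Acaa2* in MuSC-like cells on diet under that gating (0.37), *Fabp4* in FAP-like cells between genotypes with stricter limits on genes and mitochondrial UMIs a cell (0.37), and *Lpl* in macrophage-like cells between genotypes under that gating (0.52), at Leiden resolution 0.5 (0.54) and with clusters weighted alike (0.11). Against the other libraries combined, which puts KO HFD into the reference for diet, the diet ratios of *Cpt1a* were 0.31 in FAP-like and 0.38 in MuSC-like cells, those of *Plin2* and *Cd36* in macrophage-like cells 0.20 and 0.35, and those of *Cd36* and *Lpl* in endothelial-like cells 0.54 and 0.56; *Cd36* in macrophage-like cells was 0.48 with clusters weighted alike. Of 572 values of the other 44 results for single genes, those besides *Angptl4* in FAP-like cells, under 14 planned and 2 added alternatives, 483 stayed within the counting interval, 88 moved out of it and 1 value past 1.5-fold changed sign; 36 more changed sign where the reported ratio was short of 1.5-fold, such as *Angptl4* in MuSC-like cells between genotypes (-0.50 to 0.52, against the other libraries combined) and *Acaa2* there (-0.51 to 0.24, with the gating). No paired analysis was possible because each group is 1 library and the labels give no replicate numbers. Leaving out a replicate was likewise impossible. With 1 library a group, a difference between libraries and a difference between diets or genotypes cannot be told apart, and classes of few cells set wide counting intervals.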

Other observations

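Mesothelial-like cells, with 38, 85 and 49 cells in WT CD, WT HFD and KO HFD and so too few for the comparisons above, had the highest *Angptl4* level of any class in WT CD. The values were 66.7 CPM (45.0 to 95.2), 40.6 (28.7 to 55.7) and 26.5 (14.5 to 44.4) on 30, 38 and 14 UMIs, so WT CD was highest here and lowest in the stroma. The log2 ratio of WT HFD to WT CD was -0.72, with a counting interval of -1.45 to 0.02. *Acaa2* in the same cells was 285, 314 and 302 CPM, the highest of all classes in WT CD. Mural cell-like cells, with 17, 30 and 27 cells, had 2738, 7099.8 and 2898 CPM of *Fabp4*. Their diet ratio was 1.37 (1.16 to 1.60), and 1.88 without the highest cell of each library. The part of endothelial transcripts in these values was not tested.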
